A study of Mus musculus with 36 samples.

Results

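SAHA and CI-994, both inhibitors of histone deacetylases, were set against each other in the medial prefrontal cortex (PFC) of mice treated daily. The comparison holds the 6 PFC arrays of the SAHA and CI-994 groups, chosen by the labelled brain region and treatment, of 36 arrays in all. Each group had 3 arrays, and each array carried RNA pooled from 2 mice, so that 6 mice stood behind each drug. All mice were adult males labelled C57BL/6J (C57BL/6 in the study's methods), bought at 10 weeks of age and housed for a further week before the study's procedures, that had received 10 daily intraperitoneal injections, and tissue was taken 1 h after the last. The first group received SAHA at 25 mg/kg and the second CI-994 at 10 mg/kg, both in 5 mL/kg, while the vehicle group received the solvent mixture of saline, PEG-400 and DMSO in 7.5 mL/kg. As the doses differed, compound and dose cannot be told apart. Another group, treated with Cpd-60 at 45 mg/kg, entered the fit only to estimate the spread. Nucleus accumbens (NAc) and hippocampus (HIP) were dissected from the same mice. No animal carried a transgene, and the study's methods name more than one supplier of the mice.

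Histone deacetylases (HDACs) remove acetyl groups from lysines of histones and other proteins, and chromatin with acetylated histones is in general more open to transcription. SAHA (vorinostat) is a hydroxamic acid that chelates the catalytic zinc of class I HDACs and also inhibits HDAC6, a largely cytoplasmic enzyme that deacetylates tubulin. CI-994 (tacedinaline) is a benzamide that acts on class I HDACs and binds and leaves them slowly. In frontal cortex these enzymes sit in corepressor complexes with proteins such as Sin3a, Rcor1 and the Mta family, and HDAC inhibitors have been studied there for effects on mood-related behavior.

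Expression was read on Illumina MouseWG-6 arrays, and values are log2 intensities after quantile normalization, so that a difference of 0.26 is a 1.2-fold change. The 6 arrays were alike in median brightness but less so in their bright probes. The 95th percentile of raw intensity was 609.6 to 907.5 for SAHA and 529.6 to 697.2 for CI-994. Median raw intensity was 93.8 to 107.4 for SAHA and 91.9 to 107.9 for CI-994, and 34.9% to 38.2% of the probes were detected at a detection p of 0.01 or less. Over all probes tested, arrays of the same drug correlated at 0.987 to 0.995 and arrays of different drugs at 0.987 to 0.996, which is the same range. The 2 BeadChips of the region held both drugs alike, with 1 array of each on the first and 2 of each on the second. Vehicle was placed the other way, with pools 1 and 2 on the first BeadChip and pool 3 on the second. The main fit had no BeadChip term, and the part of the BeadChip in the comparisons with vehicle was not tested. The tissue was checked against regional markers. Of 8 markers of cortical glutamatergic neurons, 6 lay above every NAc array of these drugs in all 6 PFC arrays, among them *Slc17a7* (10.95 to 11.89, against 6.77 to 8.61 in NAc) and *Fezf2* (10.89 to 11.23, against 7.42 to 7.87). All 6 striatal markers lay below NAc, and all 3 hippocampal markers on the array lay below HIP. In such bulk tissue, fewer cells of a type and less RNA per cell cannot be told apart.

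No probe separated SAHA from CI-994 in PFC after adjustment for the number of probes tested, which does not show that the drugs acted alike. Of 22156 probes, 0 passed an adjusted p of 0.05 in limma's linear model, 0% of those tested, and the smallest adjusted p was 0.555. At an unadjusted p under 0.05 there were 880 probes (3.97%), 368 higher with SAHA (1.66%) and 512 lower (2.31%), a share below the one that the threshold itself sets. At 1.2-fold or more 158 of them remained (0.713%), 64 higher (0.289%) and 94 lower with SAHA (0.424%). The split depended on scaling: with each array only scaled to a common median, the same criteria gave 359 probes higher and 8 lower, and the median of all differences moved from 0.00 to 0.06. The middle 95% of differences ran from −0.18 to 0.19, and the median half-width of the 95% interval was 0.18, beside 0.26 for a 1.2-fold difference. The 3 SAHA pools did not overlap the 3 CI-994 pools at 2678 probes (12.1%), 1331 higher (6.01%) and 1347 lower (6.08%). For a single probe an exact permutation test of 3 pools against 3 cannot go below p = 0.1. The genes named below are therefore the largest differences at an unadjusted p, not calls. They come from 132 probes that met both the p and the 1.2-fold criterion with pools that did not overlap, 51 higher and 81 lower with SAHA, of which 17 had no current gene symbol and were not named. Counts in the gene lists below are read beside the shares over 12144 genes taken by 1 probe each, of which 50.1% were higher with SAHA, 1.55% higher and 2.67% lower at an unadjusted p under 0.05, and 5.45% and 6.37% had SAHA pools entirely above or below those of CI-994.

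**Figure D1:**
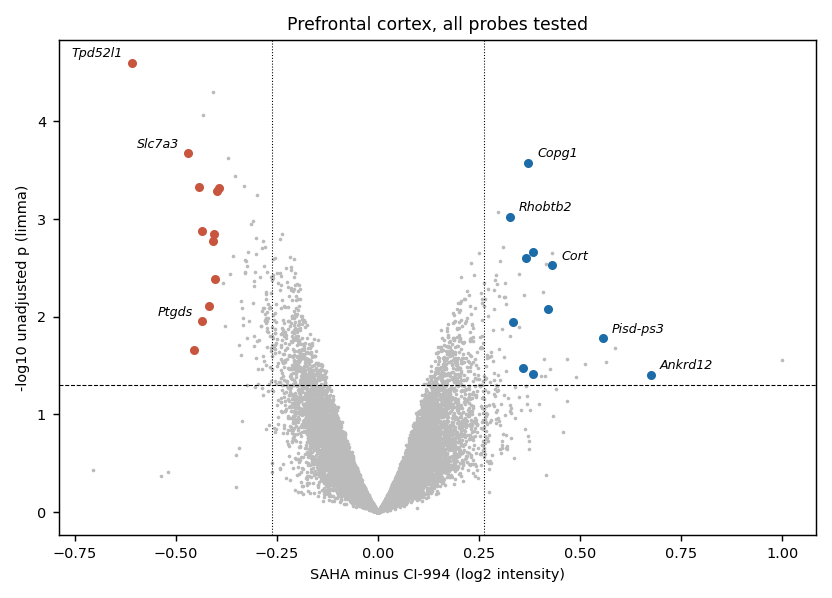
Difference between SAHA and CI-994 in PFC (x axis, log2 intensity, positive where SAHA was higher) against −log10 of limma's unadjusted p (y axis) for the 22156 probes tested. Filled points are the named genes, red where CI-994 was higher and blue where SAHA was higher, the lines mark the p and 1.2-fold thresholds, and *Tpd52l1* lies farthest up.

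The 12 genes with the largest differences toward CI-994 spanned 1.31-fold to 1.53-fold. They were *Tpd52l1*, *Slc7a3*, *H2-D1*, *Gsta4*, *Cryl1*, *Ptgds*, *Cdkn1c*, *Echdc2*, *Htatip2*, *Ass1*, *Hspa2* and *Bex4*. In all 12 the CI-994 mean lay above the vehicle mean, and in 11 the unadjusted p of CI-994 against vehicle was under 0.05, as it was for SAHA against vehicle in 1. In 11 of the 12 CI-994 lay farther from vehicle than SAHA did. Both drugs were set against the same vehicle arrays, and the genes were chosen for the distance between the drugs, so these counts are a description.

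*Tpd52l1*, a member of the tumor protein D52 family of coiled-coil proteins linked to vesicle traffic, showed the largest difference of these 12. Its SAHA pools read 7.81, 7.73 and 7.81, its CI-994 pools 8.55, 8.49 and 8.14, and its vehicle pools 7.95, 7.97 and 7.81. Every CI-994 pool lay above every SAHA and every vehicle pool, while SAHA and vehicle touched. SAHA lay 0.61 below CI-994 on the log2 scale (SE 0.09, 95% interval −0.81 to −0.40, limma unadjusted p = 2.52e-05, adjusted p = 0.555), or 1.53-fold. CI-994 stood 0.48 above vehicle and SAHA −0.13 from it. The other *Tpd52l1* probe agreed in direction, with 7.78, 7.73 and 7.77 for SAHA, 8.25, 8.24 and 8.01 for CI-994 and a difference of −0.41. With the third CI-994 pool left out, the first probe alone passed adjustment, with a difference of −0.74 and an adjusted p of 0.0111. That pool was the CI-994 pool nearest to SAHA, so leaving it out must widen the difference, and this adds no support. Without any other single SAHA or CI-994 pool the smallest limma adjusted p over all probes was 0.87 or more.

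*Slc7a3* encodes a cationic amino acid transporter that carries arginine and lysine, and *Ass1* encodes argininosuccinate synthase, the enzyme that returns citrulline toward arginine. For *Slc7a3* the SAHA pools read 8.36, 8.17 and 8.09, the CI-994 pools 8.84, 8.64 and 8.55, and the vehicle pools 8.24, 8.11 and 8.25. SAHA and vehicle shared one range and CI-994 lay above it (SAHA minus CI-994 −0.47, SE 0.09, unadjusted p = 0.000211). *Ass1* had SAHA pools at 8.20, 8.31 and 8.04 against CI-994 pools at 8.59, 8.63 and 8.53, a difference of −0.40 (unadjusted p = 0.00413). The vehicle pools of *Ass1*, at 8.34, 8.26 and 8.14, overlapped those of SAHA and lay below every CI-994 pool.

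*Hspa2*, a member of the 70-kDa heat shock protein family best known from male germ cells, read 9.75, 9.77 and 9.72 with SAHA and 10.34, 10.15 and 9.94 with CI-994. The vehicle pools, at 9.82, 9.91 and 9.89, fell between the drugs, and the drugs differed by −0.40 (SE 0.09, unadjusted p = 0.000516). A second *Hspa2* probe differed by −0.34. *Echdc2*, which encodes a predicted mitochondrial enoyl-CoA hydratase, read 8.66, 8.80 and 8.73 with SAHA, 9.15, 9.22 and 9.04 with CI-994 and 8.77, 8.60 and 8.59 with vehicle. Its difference was −0.41 (unadjusted p = 0.00166), and both other *Echdc2* probes were lower with SAHA, by −0.16 and −0.21.

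*Gsta4*, a glutathione S-transferase that clears the lipid peroxidation product 4-hydroxynonenal, was the gene of the 12 in which SAHA also differed from vehicle at an unadjusted p under 0.05. Its pools read 8.57, 8.85 and 8.72 with SAHA, 9.09, 9.28 and 9.11 with CI-994 and 9.01, 9.04 and 8.81 with vehicle. The vehicle mean lay between the drugs, 0.24 above SAHA and 0.20 below CI-994, and the drugs differed by −0.44 (unadjusted p = 0.000473). *Cryl1*, an enzyme of sugar acid metabolism, differed by −0.44 at one probe and by 0.10 in the other direction at a dimmer one, so the array gives no single value for this gene.

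*Cdkn1c* encodes the cyclin-dependent kinase inhibitor p57, an imprinted gene, and *Htatip2* encodes TIP30, a short-chain dehydrogenase-like protein. The *Cdkn1c* pools read 8.50, 8.10 and 8.13 with SAHA and 8.95, 8.51 and 8.53 with CI-994, with the first pool highest in both groups. The difference was −0.42 (unadjusted p = 0.00776), and the highest SAHA pool lay just below the lowest CI-994 pool. *Htatip2* differed by −0.41 and its other probe by −0.21, and *Bex4*, a brain-expressed X-linked gene, by −0.39 and −0.30. *H2-D1*, a class I histocompatibility heavy chain, read 8.34, 8.47 and 8.30 with SAHA and 8.90, 8.84 and 8.74 with CI-994, while its vehicle pools spread from 8.05 to 8.74. The difference was −0.45 (unadjusted p = 0.0221) and that of its other probe −0.25, and whether probes of this gene cluster also bind its close relatives was not tested. *Ptgds*, the prostaglandin D synthase made by meninges and oligodendrocytes, read 11.04, 10.63 and 10.36 with SAHA and 11.06, 11.21 and 11.08 with CI-994. On the first BeadChip its difference was −0.02 and on the second −0.64, so that the value rests on the second. Without the third SAHA pool *Ptgds* differed by −0.28 (limma unadjusted p = 0.0657), and without the first CI-994 pool *Cdkn1c* differed by −0.27. *H2-D1* had an unadjusted limma p above 0.05 without SAHA pool 1, SAHA pool 3 or CI-994 pool 1, with differences of −0.42 to −0.44.

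**Figure D2:**
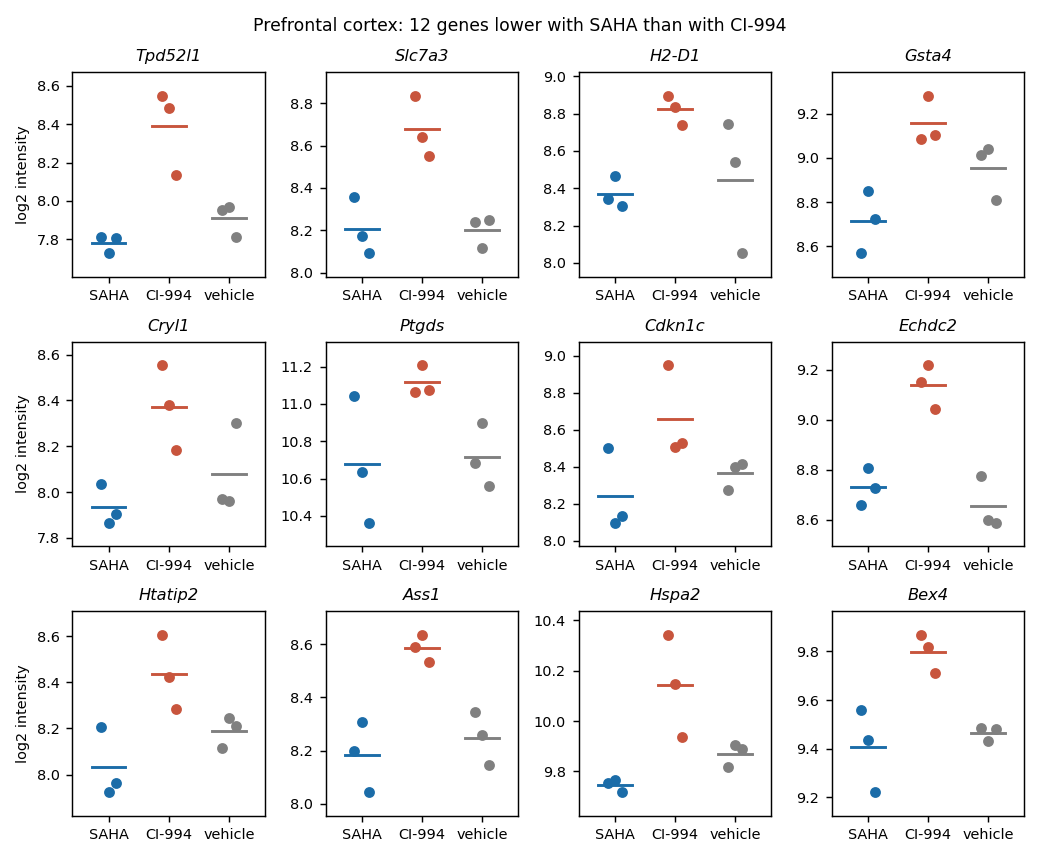
Log2 intensity (y axis) in each PFC pool for the 12 genes with the largest differences toward CI-994, one panel a gene, with SAHA in blue, CI-994 in red and vehicle in gray; each point is 1 pool of 2 mice and the bar is the group mean. In every panel the 3 SAHA points lie below the 3 CI-994 points.

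Other probes of these genes were open to the same choice, in which the probe with the largest difference was named. The second *Tpd52l1* probe met the criteria itself, so these probes are not a fully separate check. Among 7 of the 12 genes that had further probes, 7 of 8 such probes were lower with SAHA, and those 7, in 6 genes, had an unadjusted p under 0.05. All probes of a gene were read on the same arrays, so they speak to the probe and not to the pools.

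The promoters of 9 of the 12 genes were found in RefSeq (GRCm38.p6). Shown here are the 250 bases before the start of *Tpd52l1*, the largest difference of the 12, and of *Echdc2*, *Htatip2* and *Hspa2*, genes in which further probes agreed. Capitals mark GGGCGG on either strand, the core of the GC box that Sp-family factors bind, and no other motif was searched.
Tpd52l1, chr10:31445959-31446208, minus strand: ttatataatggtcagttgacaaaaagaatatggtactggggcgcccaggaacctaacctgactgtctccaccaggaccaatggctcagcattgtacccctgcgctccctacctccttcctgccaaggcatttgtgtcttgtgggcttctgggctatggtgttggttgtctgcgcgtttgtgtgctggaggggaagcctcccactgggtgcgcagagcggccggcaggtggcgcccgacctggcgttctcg
Echdc2, chr4:108165187-108165436, plus strand: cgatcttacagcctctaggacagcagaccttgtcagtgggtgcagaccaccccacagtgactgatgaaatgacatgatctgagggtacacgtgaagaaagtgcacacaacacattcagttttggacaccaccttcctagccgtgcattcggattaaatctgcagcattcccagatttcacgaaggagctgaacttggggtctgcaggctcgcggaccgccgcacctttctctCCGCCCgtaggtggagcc
Htatip2, chr7:49758856-49759105, plus strand: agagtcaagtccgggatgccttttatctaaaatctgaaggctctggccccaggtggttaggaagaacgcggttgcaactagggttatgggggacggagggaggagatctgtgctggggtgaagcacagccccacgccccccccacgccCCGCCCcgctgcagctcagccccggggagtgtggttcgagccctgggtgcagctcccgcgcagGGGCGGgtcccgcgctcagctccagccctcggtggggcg
Hspa2, chr12:76404120-76404369, plus strand: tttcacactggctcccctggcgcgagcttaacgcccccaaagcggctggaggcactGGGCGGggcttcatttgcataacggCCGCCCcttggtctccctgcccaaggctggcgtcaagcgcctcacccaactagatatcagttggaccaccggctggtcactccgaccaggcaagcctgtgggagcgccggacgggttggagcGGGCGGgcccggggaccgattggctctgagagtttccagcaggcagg
The *Tpd52l1* stretch holds no match, that of *Echdc2* holds 1, the *Htatip2* stretch shown holds 2 and that of *Hspa2* holds 3. Of the 10 promoters found for the 12 genes 5 held a match (50.0%), and of the 7 found for the 12 genes higher with SAHA 3 did (42.9%), against 32.7% of all 32851 promoters in the table. These are letter matches in a fixed window, and the 32851 promoters were not limited to genes detected here. The median number of CG pairs was 12.5 and 13 in the 10 and 7 promoters, beside 6 over all. The shares therefore say nothing about the drugs. A second *Htatip2* promoter, not shown, held 0 matches.

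The 12 genes with the largest differences toward SAHA spanned 1.25-fold to 1.6-fold, and there the probes of a gene agreed less. Those reported here are *Ankrd12*, *Pisd-ps3*, *Cort*, *Gcc2*, *Nefm*, *Meg3*, *Copg1*, *Hr*, *Nrep*, *Fosl2* and *Rhobtb2*. The SAHA mean lay above the vehicle mean in all 12 and the CI-994 mean in 1, and CI-994 lay farther from vehicle than SAHA in 9. At an unadjusted p under 0.05 CI-994 differed from vehicle in 6 and SAHA in 2. Of 23 further probes in 11 of the genes, 20 were higher with SAHA, but only 2 had an unadjusted p under 0.05, 1 each in *Ankrd12* and *Cort*.

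*Cort* encodes cortistatin, a somatostatin-like neuropeptide of cortical interneurons. Its SAHA pools read 7.59, 7.70 and 7.74, its CI-994 pools 7.19, 7.13 and 7.41, and its vehicle pools 7.62, 7.61 and 7.77. SAHA and vehicle overlapped and all CI-994 pools lay below both, with a difference of 0.43 between the drugs (SE 0.12, unadjusted p = 0.00298). The second *Cort* probe read 8.33, 8.34 and 8.35 with SAHA and 8.03, 7.59 and 8.18 with CI-994, a difference of 0.41.

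In *Nefm* SAHA, rather than CI-994, differed from vehicle at an unadjusted p under 0.05. *Nefm*, the medium neurofilament chain of axons, read 8.90, 8.72 and 8.83 with SAHA, 8.40, 8.48 and 8.42 with CI-994 and 8.57, 8.59 and 8.37 with vehicle. The SAHA pools stood alone above the others, 0.38 above CI-994 (unadjusted p = 0.00219) and 0.31 above vehicle.

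*Copg1*, a subunit of the coatomer that coats Golgi vesicles, had the smallest p of the 12. Its pools read 9.31, 9.19 and 9.12 with SAHA, 8.92, 8.72 and 8.87 with CI-994 and 9.08, 9.16 and 9.08 with vehicle. CI-994 lay below both other groups, and the drugs differed by 0.37 (SE 0.07, unadjusted p = 0.000265, adjusted p = 0.980), while its 3 other probes ranged from −0.02 to 0.22. *Hr* encodes hairless, a corepressor of the thyroid hormone receptor that recruits HDACs. It read 8.49, 8.19 and 8.34 with SAHA and 7.86, 7.99 and 8.07 with CI-994. *Fosl2*, an AP-1 transcription factor gene, read 8.43, 8.14 and 8.34 with SAHA and 8.06, 7.94 and 7.91 with CI-994, and differed by 0.33 (unadjusted p = 0.0113), while its other probe differed by 0.01.

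The largest difference of these 12, that of *Ankrd12*, came with a wide spread. This gene encodes a nuclear ankyrin-repeat protein, and its pools read 8.83, 8.72 and 8.60 with SAHA, 7.37, 8.16 and 8.60 with CI-994 and 8.76, 7.99 and 8.96 with vehicle. The lowest SAHA pool and the highest CI-994 pool agreed to the second decimal, and the 0.68 difference had a 95% interval from 0.04 to 1.31. It was 1.46 on the first BeadChip and 0.28 on the second. *Meg3*, a maternally expressed noncoding RNA, showed the same pattern with 0.73 and 0.21. *Gcc2*, a golgin of the trans-Golgi, differed by 0.42, *Nrep*, a gene of regenerating neurons, by 0.36, and *Rhobtb2* by 0.33 with 2 of 3 other probes in the opposite direction. The probe named for *Pisd-ps3* belongs to a pseudogene with close copies, so its 0.56 difference cannot be tied to 1 transcript. Single pools carried several of these values. Without the first CI-994 pool *Ankrd12* differed by 0.34 and *Meg3* by 0.24, without the first SAHA pool *Nrep* differed by 0.23, and without the second CI-994 pool *Pisd-ps3* differed by 0.34, in each case with an unadjusted limma p of 0.05 or more. Leaving out other pools also took *Ankrd12*, *Meg3*, *Nrep*, *Pisd-ps3* and *Fosl2* above that p.

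**Figure D3:**
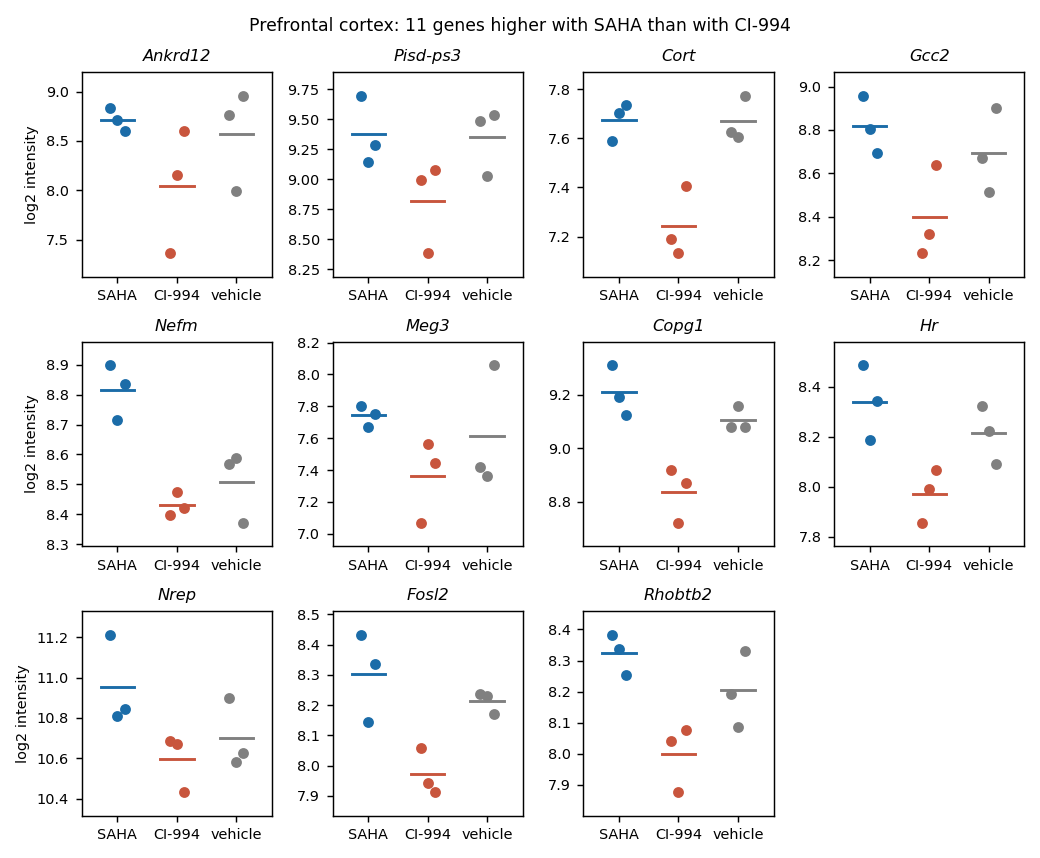
Log2 intensity (y axis) in each PFC pool for the 11 genes reported here among those with the largest differences toward SAHA, drawn as SAHA in blue, CI-994 in red and vehicle in gray, with 1 point for each pool and a bar at the group mean. All SAHA points lie above all CI-994 points, by a margin too small to see in *Ankrd12*.

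The transcripts of the drug targets were read first among the gene lists. *Hdac2* read 8.69, 8.73 and 8.78 with SAHA and 8.63, 8.58 and 8.72 with CI-994, a difference of 0.09 with a 95% interval from −0.41 to 0.59. *Hdac3* differed by 0.03 (−0.20 to 0.26). Of 15 class I HDAC and corepressor genes tested, 0 were higher and 1 lower at an unadjusted p under 0.05, with a median of 0.04 beside 0.00 over 12144 genes. The 1 was *Mta3*, a subunit of the nucleosome remodeling and deacetylase complex, at 7.63, 7.48 and 7.53 with SAHA and 7.89, 7.74 and 7.74 with CI-994. Of the 7 class II and IV genes 1 was lower, namely *Hdac6*, with 6.54, 6.66 and 6.78 against 6.87, 6.83 and 6.87 (difference −0.19, unadjusted p = 0.0442), in a range near the dim end of the array. *Hdac1* was not analysed here. Among 23 acetyltransferase, bromodomain and DNA methylation genes 2 were lower with SAHA, *Mbd3*, a methyl-CpG-binding domain protein of the same deacetylase complex (−0.27), and *Kat8*, a histone H4 acetyltransferase (−0.23). In the order given, the shares lower in these lists were 6.67%, 14.3% and 8.7%, each from 1 or 2 genes, beside 2.67% of all genes. The brightest members of both HDAC lists overlapped between the drugs: *Ncor1*, a corepressor, differed by 0.05, *Rbbp7*, a histone-binding subunit, by −0.09, *Hdac5* by 0.08 and *Hdac11* by −0.06. Of 15 cell-cycle inhibitor, Gadd45 and linker histone genes *Cdkn1c* alone was past the unadjusted threshold.

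The list of genes that glucocorticoids induce includes genes the study named on these samples, so its direction is not independent evidence. Of 25 tested, 18 were higher and 7 lower with SAHA, 1 had an unadjusted p under 0.05 and 6 had SAHA pools entirely above the CI-994 pools, with a median difference of 0.05. Over all 12144 genes taken by 1 probe each, 6088 were higher, 662 had SAHA pools entirely above and the median was 0.00. The 1 was *Bcl6*, a zinc-finger repressor, at 8.73, 8.73 and 8.86 with SAHA and 8.53, 8.41 and 8.61 with CI-994. The mean level of the list was 8.16 to 8.21 in the SAHA pools, 8.08 to 8.10 with CI-994 and 8.08 to 8.13 with vehicle, and those of SAHA did not overlap the other ranges. *Klf9*, a glucocorticoid-responsive transcription factor gene and among the brightest, differed by 0.28 with overlapping pools. *Etnppl*, an astrocyte enzyme gene labelled *Agxt2l1* on the array, read 7.48, 7.37 and 7.33 against 7.04, 7.16 and 7.04 (difference 0.31, unadjusted p = 0.0630). *Sgk1*, a kinase gene that corticosteroids induce, differed by 0.11 with overlapping pools (95% interval −0.27 to 0.49), and *Tsc22d3*, which encodes the glucocorticoid-induced leucine zipper, by 0.14 (−0.13 to 0.41). Of the metallothioneins, *Mt1* differed by −0.00 and *Mt2* by 0.13, and 0 of 3 had an unadjusted p under 0.05.

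Neuronal lists held few genes at an unadjusted p under 0.05, though some shares, among them that of potassium channel genes, lay above those of all genes. Among 45 potassium channel genes 31 were higher with SAHA (68.9%, beside 50.1% of all genes), 3 of them at an unadjusted p under 0.05 (6.67%, beside 1.55%) and 0 in the other direction, with a median of 0.07. The 3 were *Kcnq5*, a subunit of the M-current (0.25), *Kcnab3*, an auxiliary subunit (0.21), and *Kcns2*, a silent modulatory subunit (0.17), and all 3 lay below vehicle with CI-994. In 8 of the 45 (17.8%, beside 5.45%) the SAHA pools lay entirely above the CI-994 pools. Of 18 immediate early genes, which neurons transcribe within minutes of activity, *Fosl2* alone met the criteria, at 1 of its 2 probes. *Egr1* read 11.58, 11.59 and 11.75 with SAHA and 11.16, 11.33 and 11.33 with CI-994, without overlap (difference 0.37, unadjusted p = 0.0507). *Bdnf*, the activity-regulated neurotrophin, read 8.92, 8.86 and 8.82 with SAHA, 8.55, 8.70 and 8.78 with CI-994 and 8.95, 8.93 and 8.96 with vehicle. All CI-994 pools lay below the other groups, 0.19 below SAHA (unadjusted p = 0.0430). None of 28 glutamate receptor and scaffold genes, 14 circadian genes or 8 opioid and dopamine genes had an unadjusted p under 0.05. Of 27 synaptic vesicle genes *Syt7*, a calcium sensor of release, was higher (0.22), and of 14 GABA genes *Gabra4* was lower (−0.13).

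Ribosomal and proteasome genes lay toward CI-994 by small amounts after quantile normalization and toward SAHA after median scaling, as the median of all probes then did. Of 64 cytosolic ribosomal protein genes 48 were lower and 16 higher with SAHA, 5 lower (7.81%, beside 2.67% of all genes) and 0 higher at an unadjusted p under 0.05, with a median of −0.05. *Rps10*, of the small subunit, read 11.03, 10.98 and 10.93 with SAHA and 11.34, 11.39 and 11.31 with CI-994 (difference −0.37, unadjusted p = 0.000239). *Rps25*, in the same subunit, read 10.28, 10.45 and 10.33 against 10.58, 10.82 and 10.59, with vehicle at 10.64, 10.59 and 10.65, so here vehicle lay with CI-994. Median scaling put 51 of the 64 higher with SAHA, at a list median of 0.07 beside 0.06 over all probes. Ribosomal protein genes have many processed copies, and whether probes bind them was not tested. Of 34 proteasome genes 2 were lower (5.88%, beside 2.67%), *Psmb5*, a catalytic subunit (−0.32), and *Psmb8*, its interferon-induced relative of the immunoproteasome (−0.18). That list's median, −0.05, likewise became 0.11 under median scaling, beside the same 0.06 over all probes.

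Markers of cell types were read to see what else moved. Of 11 oligodendrocyte markers 9 were higher with SAHA (81.8%, beside 50.1% of all genes), at a median of 0.17. Of these markers 0 had an unadjusted p under 0.05 and 0 had pools that did not overlap. On the first BeadChip the median of the 11 was 0.59, and on the second it was −0.08 with 5 of 11 positive. The mean level of the list was 9.45 to 9.81 in the SAHA pools and 9.28 to 9.72 with CI-994. Of 13 meningeal and fibroblast markers *Ptgds* and *Igfbp2*, an insulin-like growth factor binding protein, were lower with SAHA, by −0.44 and −0.33 (15.4%, beside 2.67% of all genes). *Ptgds* was itself chosen above for its PFC difference, and it enters the median and mean level of this list. Of the 13, 9 were lower and 4 higher, with a median of −0.07. Under median scaling that median became 0.00, which was still below the 0.06 over all probes. The collagen genes *Col1a1* and *Col1a2* differed by 0.09 and −0.03. The mean level of that list was 7.71 to 7.89 with SAHA and 7.81 to 7.99 with CI-994, and the part of such tissue in the *Ptgds* value was not tested. Of 11 astrocyte markers 0 were higher and 1 lower at an unadjusted p under 0.05. Of 11 deep-layer genes *Ccn2*, a marker of subplate-derived neurons, was higher (0.29), at 9.14, 9.17 and 9.09 against 8.79, 8.92 and 8.83.

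Markers of blood (3 tested), choroid plexus (8), microglia (9), endothelium (11), striatal (11) and hippocampal neurons (9) held 0 genes at an unadjusted p under 0.05. The hemoglobin gene *Hba-a1* read 11.91 to 12.03 with SAHA and 11.81 to 12.11 with CI-994, but 12.68, 12.74 and 11.91 with vehicle. The pools of both drugs overlapped, and 2 vehicle pools, both on the first BeadChip, stood higher. The mean level of the blood list was 10.39 to 10.47 with SAHA, 10.30 to 10.49 with CI-994 and 10.36 or more with vehicle, and the part of blood in the comparisons with vehicle was not tested. The lists of oligodendrocyte precursors (7), cortical glutamatergic neurons (18), septal, thalamic and hypothalamic cells (10), C57BL/6 substrain genes (4), actins and tubulins (27) and cholesterol synthesis (18) also held 0. Of 14 interneuron and stress neuropeptide genes *Cort* alone was past the threshold. Of 4 olfactory and subventricular markers *Dlx1*, a homeobox gene of interneuron development, was higher (0.19) and the photoreceptor cadherin gene *Cdhr1* lower (−0.27), the latter near the dim end of the array.

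**Figure D4:**
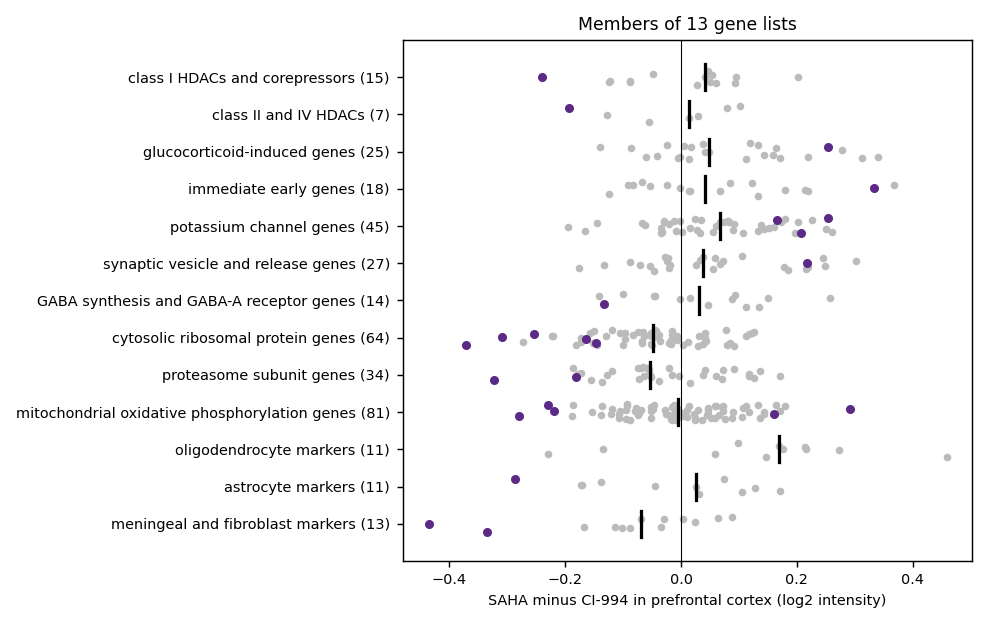
SAHA minus CI-994 in PFC (x axis, log2 intensity) for each tested member of 13 gene lists, with the number of members in parentheses. Purple points have an unadjusted limma p under 0.05 and gray points do not, and the black bar is the list's median, which is farthest from 0 for the oligodendrocyte markers at 0.17.

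The same mice gave NAc and HIP, so the sign of each PFC difference was read there. SAHA against CI-994 gave 83 probes of 23242 in NAc (0.357%) and 497 of 23275 in HIP (2.14%) at an unadjusted p under 0.05 and 1.2-fold, with 0 at an adjusted p of 0.05 in either by limma. At the unadjusted p alone the shares were 1.37% in NAc (0.848% higher, 0.525% lower) and 8.2% in HIP (3.12% higher, 5.08% lower). The hippocampal SAHA arrays of pools 2 and 3 were dimmer than the rest, with 95th percentiles of 437.7 and 452.0 against 593.6 or more. Hippocampal differences and their signs are therefore also given below without them. That fit keeps pool 1 as the only SAHA array, so no p-value or count at a p is given from it. Of the 81 probes chosen as lower in PFC, 66 were lower in HIP as well (81.5%) and 21 of those at an unadjusted p under 0.05 (25.9%), beside 59.4% and 7.06% of all probes lower in PFC. Without the 2 arrays 68 of the 81 were lower (84.0%, beside 62.3%). In NAc 52 of 80 were lower (65.0%, beside 52.7%) and 3 at that p (3.75%, beside 0.633%). Of the 51 chosen as higher, 36 were higher in HIP (70.6%, beside 53.5% of all probes higher in PFC), 2 at that p (3.92%, beside 3.75%), and 27 in NAc (52.9%, beside 50.2%), so that the last 2 shares were near those of all probes. Without the 2 arrays 35 of the 51 were higher in HIP (68.6%, beside 54.1%). As the pools of the regions came from the same mice, these are not new animals.

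*Tpd52l1* was lower with SAHA in all 3 regions. In NAc it read 8.44, 8.23 and 8.33 with SAHA and 8.71, 8.67 and 8.69 with CI-994 (difference −0.36, unadjusted p = 0.0122), with no overlap. In HIP it read 8.06, 8.39 and 8.10 against 8.56, 8.40 and 8.40 (−0.27, unadjusted p = 0.00904), and −0.39 without the 2 dim arrays. *Echdc2* read 8.27, 8.28 and 8.36 in HIP against 8.89, 9.16 and 8.73 (−0.63, unadjusted p = 2.08e-05), and −0.66 without those arrays, while in NAc the groups overlapped (−0.28, unadjusted p = 0.0579). *H2-D1* differed in HIP by −0.56 and *Hspa2* by −0.22, and without the 2 arrays by −0.52 and −0.14. *Ptgds* differed by 0.46 in NAc, opposite in sign to PFC, with overlapping pools. Among the genes that glucocorticoids induce, *Etnppl* was higher with SAHA in NAc by 0.57 (unadjusted p = 0.00807) and *Sult1a1* by 0.38 (unadjusted p = 0.0167), beside 0.31 and 0.16 in PFC. Both were picked from the 25 genes of that list, whose other members are not given for NAc. Over all NAc probes 0.848% were higher at an unadjusted p under 0.05. The PFC difference minus the mean of NAc and HIP was −0.04 for *Etnppl* and −0.11 for *Sult1a1*.

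Whether a difference was particular to PFC was tested as the PFC difference minus the mean of the other regions. Of 19447 probes 406 had an unadjusted p under 0.05 (2.09%) and 0 an adjusted p under 0.05 by limma. Among the 24 genes, 8 had an unadjusted p under 0.05, with the smallest adjusted p at 1.00. The genes were chosen for their PFC difference, which enters this test, so that count is a description and supports nothing. For *Echdc2* the PFC difference and that of the other regions were not told apart (unadjusted p = 0.750). No gene was thereby shown to differ between the drugs in PFC alone.

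**Figure D5:**
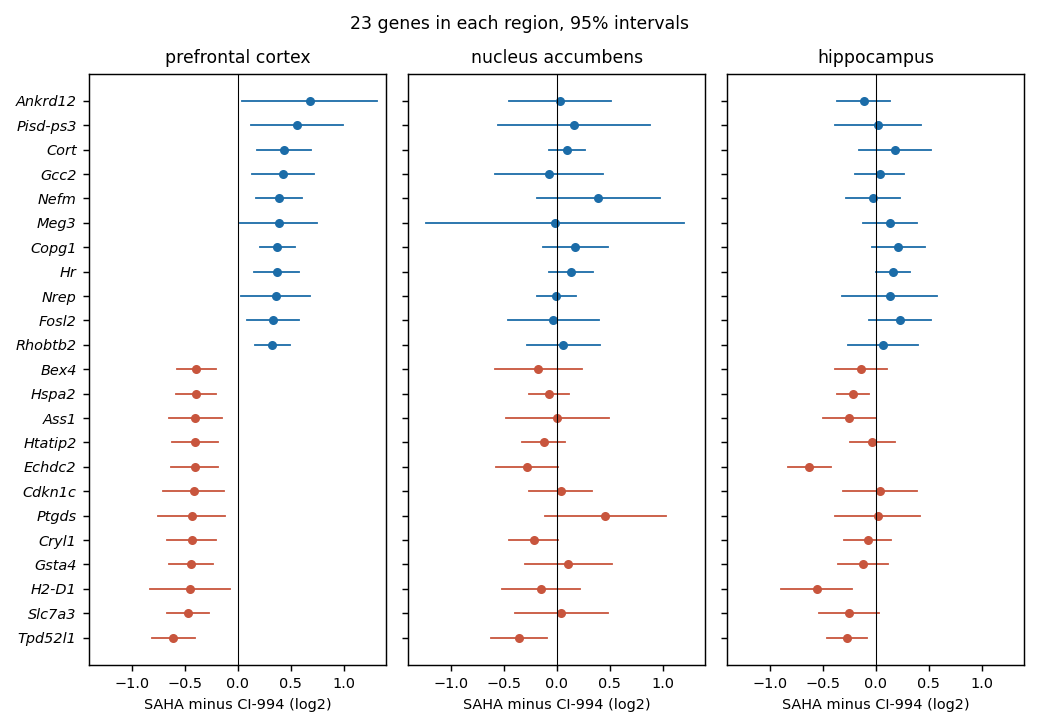
SAHA minus CI-994 (x axis, log2 intensity) with 95% intervals for 23 of the genes in PFC, where they were chosen, and in NAc and HIP of the same mice; blue marks genes higher and red those lower with SAHA in PFC. The intervals of *Tpd52l1* stay below 0 in all 3 panels, and *Echdc2* and *H2-D1* lie farther from 0 in HIP than in PFC.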

How the data were processed

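Gene expression was measured on Illumina MouseWG-6 BeadChips. The authors deposited raw probe intensities with a detection p-value for each of 45281 probes and 36 arrays, and background subtraction before deposit is not given in the sources used here. The study's own work used GeneSpring 11.5.1, quantile normalization and analysis of variance. Here intensities were quantile-normalized over all arrays, floored at 1 and log2-transformed. A probe was tested if its detection p was 0.2 or less in all 3 arrays of at least 1 PFC group. limma 3.58.1 (R 4.3.3) was fitted to the 12 PFC arrays, with Benjamini-Hochberg adjustment. Each array is 1 pool of 2 mice, so p-values measure the spread between pools, and the small number of arrays limits precision. Named genes were the 12 largest differences in each direction with an unadjusted p under 0.05, 1.2-fold or more and pools that did not overlap. In the 38 gene lists, members past both thresholds, or else the 2 brightest, and genes the study names could be named; the text gives only some of these, and other members were named after their values were seen. The members and lists were chosen with earlier results of these data known. Current symbols came from RefSeq, which matched 21929 of 30869 symbols. The model was tested on simulated data. Probe sequences were not used here. Alternatives were the normalization, the detection filter, the arrays fitted, BeadChip and pool number as blocks, the methods' analysis of variance with Tukey's HSD, and each array left out; leaving out the dim hippocampal arrays was added after seeing the data. A few items are not reported here.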

Additional observations from a re-analysis of the deposited data

How the results depend on the processing

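All 24 named genes kept their direction in PFC under each of the 23 alternatives. They were chosen for pools that did not overlap, which fixes the direction unless the normalization changes. Only the alternatives with another normalization could therefore have reversed it. The named genes lost the p and fold criteria most often under the methods' analysis of variance with Tukey's HSD (10 genes) and median scaling (8), and under the BeadChip block none did. All 24 differed in the same direction on both BeadChips. Pools that do not overlap must give this, so it adds no support. The counts moved more. At an unadjusted p under 0.05 the 880 probes became 542 with detection at 0.01 or less, 1744 without a detection filter, 1878 on the second BeadChip alone and 283 by Tukey's HSD. The 1.2-fold counts of 64 higher and 94 lower became 458 and 503 with neqc normalization, 359 and 8 with median scaling, 189 and 230 on the second BeadChip and 11 and 36 by Tukey's HSD, and 106 were higher with the SAHA and CI-994 arrays alone. Leaving out each pool gave 657 to 1182 probes at the unadjusted p, 62 to 134 higher and 91 to 171 lower at 1.2-fold, and 0 or 1 after adjustment. The extremes of 134 and 171 came without the third CI-994 pool, 102 higher came without the first, and 161 lower without the first SAHA pool. In NAc a BeadChip block gave 126 probes at 1.2-fold instead of 83. The test against the other regions gave 635 probes instead of 406 with a BeadChip block and 323 to 530 with each pool left out. In HIP, leaving out the 2 dim SAHA arrays kept only SAHA pool 1, so no count is given for that fit. The cause of these moves was not tested, beyond fewer arrays or probes entering a fit. With the pool number as a replicate block the counts were 935, 86 and 97 and 0 after adjustment, with 1 of the 24 genes past the criteria no longer. The labels use the same pool numbers in both groups but do not call them pairs, and they were not taken as pairs. Same-numbered pools deviated together at r = 0.31, 0.24 and 0.08, and the third SAHA pool correlated best with the second CI-994 pool. Pool 1 of both drugs was on the first BeadChip and pools 2 and 3 on the second. These values therefore cannot tell pairing from BeadChip placement. Probes near the dim end of the array are limited by signal over background.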

Other observations

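In some further gene groups single members had an unadjusted p under 0.05, in shares to be read beside 1.55% higher and 2.67% lower over all 12144 genes. Of 10 serotonin receptor genes *Htr3a*, the ion channel receptor of a class of cortical interneurons, was lower with SAHA, at 6.99, 6.99 and 7.06 against 7.37, 7.18 and 7.07 with CI-994 (difference −0.19, limma unadjusted p = 0.0280), near the dim end of the array. Of 9 histone genes *Macroh2a2*, which encodes a macroH2A variant, was lower by −0.21. The list median of −0.09 became 0.07 under median scaling, beside 0.06 over all probes. Of 81 oxidative phosphorylation genes 2 were higher, *Sdhb* of complex II (0.29) and *Atp5b* of the ATP synthase (0.16), which is 2.47%, and 3 lower (3.7%), *Atp5g2* (−0.28), *Ndufa11* (−0.23) and *Ndufaf8* (−0.22). The median of the 81 was −0.01 and became 0.12 under median scaling, beside the same 0.06 over all probes. Of 55 chaperone genes *Hspa2* and *Dnajc12* (−0.21) were lower (3.64%) and 0 higher. The shares of the oxidative phosphorylation and chaperone genes lay near those of all genes. In the short serotonin receptor and histone lists, 1 lower gene made up 10% and 11.1%.

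Of genes the study followed, *Usp54*, a ubiquitin peptidase-like gene, was higher with SAHA in PFC (0.18, unadjusted p = 0.0370), with pools at 8.56, 8.50 and 8.42 against 8.39, 8.24 and 8.29. *Qdpr*, which regenerates tetrahydrobiopterin, differed by −0.23 in PFC with overlapping pools (95% interval −0.50 to 0.04) and by −0.34 in HIP (limma unadjusted p = 0.00476). Without the 2 dim arrays, with only SAHA pool 1 left, its hippocampal difference was −0.54. *Mef2c*, an activity-dependent transcription factor gene, differed by −0.10 with overlapping pools.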
